A study of Mus musculus with 8 samples.

Results

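The comparison described here is that of a high-fat with a low-fat diet in mice that drank plain deionized water without arsenite. Its members are 4 of the 8 arrays of the study, 2 from mice on the high-fat diet (HFD, 42% of calories from fat) and 2 from mice on the low-fat diet (LFD, 13%), chosen by the diet and water that the labels give. All mice were male C57Bl/6J. Livers were taken after 10 weeks per the labels' protocols, or 90 days per another label, a difference that the labels do not settle. The other 4 arrays came from mice on the same diets whose water held sodium arsenite, 3 mg per litre as inorganic arsenic (LFD+As and HFD+As). RNA was extracted from single livers, and each array (Affymetrix Mouse Gene 1.0 ST) holds equal amounts from 5 mice, so that a replicate is a pool and the p-values measure the spread between pools, not between mice. No body weight, liver fat or blood measure was analysed here, so the diet is described only as fed.

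The liver answers inflammatory signals such as interleukin-6 and interleukin-1 by secreting acute phase proteins, and the factors STAT3 and NF-kB carry these signals to the genes. NF-kB also switches on its own inhibitors, so that genes of chemokines and of NF-kB inhibitors often move together. Diets rich in fat supply fatty acids that are ligands of PPAR-alpha, the nuclear receptor of fatty acid oxidation, and they are widely used to produce fatty liver in this mouse strain.

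The liver label was checked against hepatocyte genes. Alb, the gene of albumin, lay between 14.46 and 14.48 log2 units in the 4 arrays, near the upper end of the range of these arrays. The other 6 measured hepatocyte markers were also bright, the dimmest being Hnf4a at 12.29 to 12.57. The deposited table holds no detection calls, so no signal could be set against background. The 19938 genes with a symbol of their own were reduced to the 11963 (60%) with the highest means, and all changes below are differences of log2 signal, HFD minus LFD. The 2 LFD arrays differed by a median of 0.15 across these genes and the 2 HFD arrays by 0.13, and 27 genes differed by at least 1 between the group means. Long genes, measured from first to last base, ran higher in some arrays than in others: across genes, an array's deviation from the mean of the 4 arrays had a rank correlation with gene span of 0.25 and 0.03 in LFD and 0.10 and -0.28 in HFD.

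In the limma fit 55 of the 11963 genes passed a Benjamini-Hochberg adjusted p of 0.05, which is 0.46% of those tested. Of these, 41 were higher in HFD (0.343% of the genes tested) and 14 lower (0.117%), a split that quantile normalization turned to 26 and 15. The HFD arrays lay apart from the LFD arrays for all 55, as they did, upwards, for 21.7% and, downwards, for 16.5% of all genes tested. An exact permutation test of 2 arrays against 2 cannot give a p below 0.333, so each call rests on the variance that limma shares among genes. Without LFD replicate 1 limma called 0 genes (1829 at an unadjusted p under 0.05, where the fit to all arrays had 1232). It called 11 with LFD replicate 2 left out, 16 with HFD replicate 2 left out and 57 with HFD replicate 1 left out, of which 29 were among the 55. With every gene that has a symbol in the test, 13 were called, 12 of them among the 55. All 55 kept their sign in each of these fits. With an array left out or no filter this had to be so. Their arrays lay apart between the diets, and the filter leaves a gene's values unchanged. In bulk tissue, fewer cells of a type cannot be told apart from less RNA per cell.

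**Figure D1:**
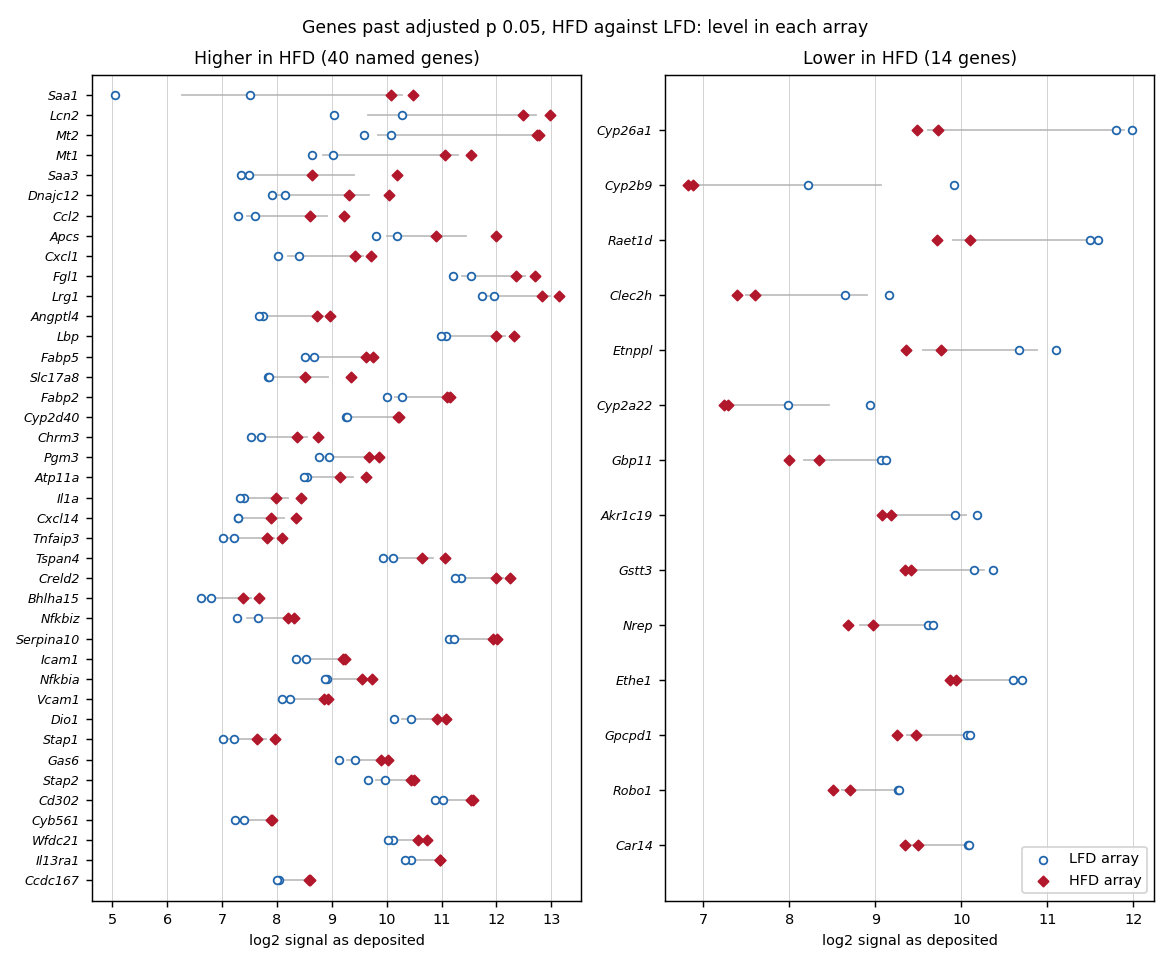
Level (log2 signal as deposited, x axis) of the 54 named genes past an adjusted p of 0.05 in each LFD array (open circles) and HFD array (red diamonds), sorted by size of change; the grey line joins the group means. The circles and diamonds do not overlap for any of these genes, the widest gap between LFD arrays is that of Saa1 (5.04 and 7.51), and Cyp2b9 has LFD arrays at 9.91 and 8.22.

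Genes of acute phase proteins held the largest rises. Saa1, the gene of serum amyloid A1, a lipoprotein-bound acute phase protein, had signals of 5.04 and 7.51 in the LFD arrays and 10.08 and 10.48 in the HFD arrays. The LFD arrays were thus far apart from each other, and their mean of 6.28 is under the level of the filter on dim genes (6.97), so that the size of the rise is uncertain, but both lay well under the HFD arrays, and Saa1 rose by 4.0 (16.1-fold, SE 0.57, adjusted p = 0.00913). Lcn2, whose product lipocalin 2 binds the siderophores by which bacteria take up iron, had 9.05 and 10.28 in LFD and 12.49 and 12.97 in HFD. It rose by 3.06 (8.36-fold, SE 0.37, adjusted p = 0.00417), and here too LFD replicate 1 was the lowest array. Saa3, another serum amyloid gene, stood at 7.34 and 7.50 in LFD and at 8.64 and 10.18 in HFD. Its rise of 1.99 (SE 0.35, adjusted p = 0.0275) rested more on the second HFD pool than on the first. Apcs, the gene of serum amyloid P, the main acute phase pentraxin of the mouse, had 10.19 and 9.81 in LFD and 10.91 and 12.00 in HFD, again with the second HFD pool highest, and rose by 1.45 (SE 0.28, adjusted p = 0.0415).

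The other called genes of secreted liver proteins had narrower spreads. Lrg1, which encodes a leucine-rich glycoprotein induced in inflammation, had 11.74 and 11.96 in LFD and 13.14 and 12.83 in HFD. It rose by 1.14 (SE 0.14, adjusted p = 0.00494). Lbp, the gene of the protein that carries bacterial lipopolysaccharide to its receptor, was at 11.07 and 10.99 in LFD and at 12.32 and 11.99 in HFD, a rise of 1.13 (SE 0.18, adjusted p = 0.0181). Fgl1, the gene of a fibrinogen-like hepatokine, rose by 1.16 (adjusted p = 0.0111), and Serpina10, the gene of an inhibitor of coagulation factor Xa, by 0.79 (adjusted p = 0.0317). In these 8 genes the change ran from 0.79 to 4.0. Without LFD replicate 1 all 8 lost their calls and their changes ran from 0.75 to 2.77. Leaving out LFD replicate 2 kept 3 calls, leaving out HFD replicate 1 kept 6 and leaving out HFD replicate 2 kept 3, where Saa3 stood at 1.22 and Apcs at 0.91. Probes of the Saa genes may bind transcripts of their close relatives.

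Nearly the whole acute phase list was positive. Of its 28 tested members 27 were positive and 8 passed the test, all higher, with a median change of 0.52 where the median over all genes tested was 0.01 and 53.3% were positive. The 8 include Mt1 and Mt2, which the list holds because they respond to acute phase signals. The HFD arrays lay above both LFD arrays for 27 of the 28, beside 21.7% of all genes tested. Some members that did not pass had large values with wide errors, while the changes in the list ran down to -0.05. Saa2 had 9.17 and 12.32 in LFD and 13.37 and 13.69 in HFD, a difference of 2.78 (SE 0.65, adjusted p = 0.10), and Orm2, the gene of an orosomucoid, had 1.24 (SE 0.28, adjusted p = 0.0827). Steap4, a metalloreductase gene, had 1.19 (SE 0.26, adjusted p = 0.0724). The median of the list lay between 0.48 and 0.62 with any 1 array left out. Genes of complement and coagulation, also made by hepatocytes, gave 24 of 34 positive, a median of 0.08 and 0 calls; Cfb, the gene of complement factor B, had 0.40 (adjusted p = 0.192) and the fibrinogen gene Fga 0.33 (adjusted p = 0.339).

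**Figure D2:**
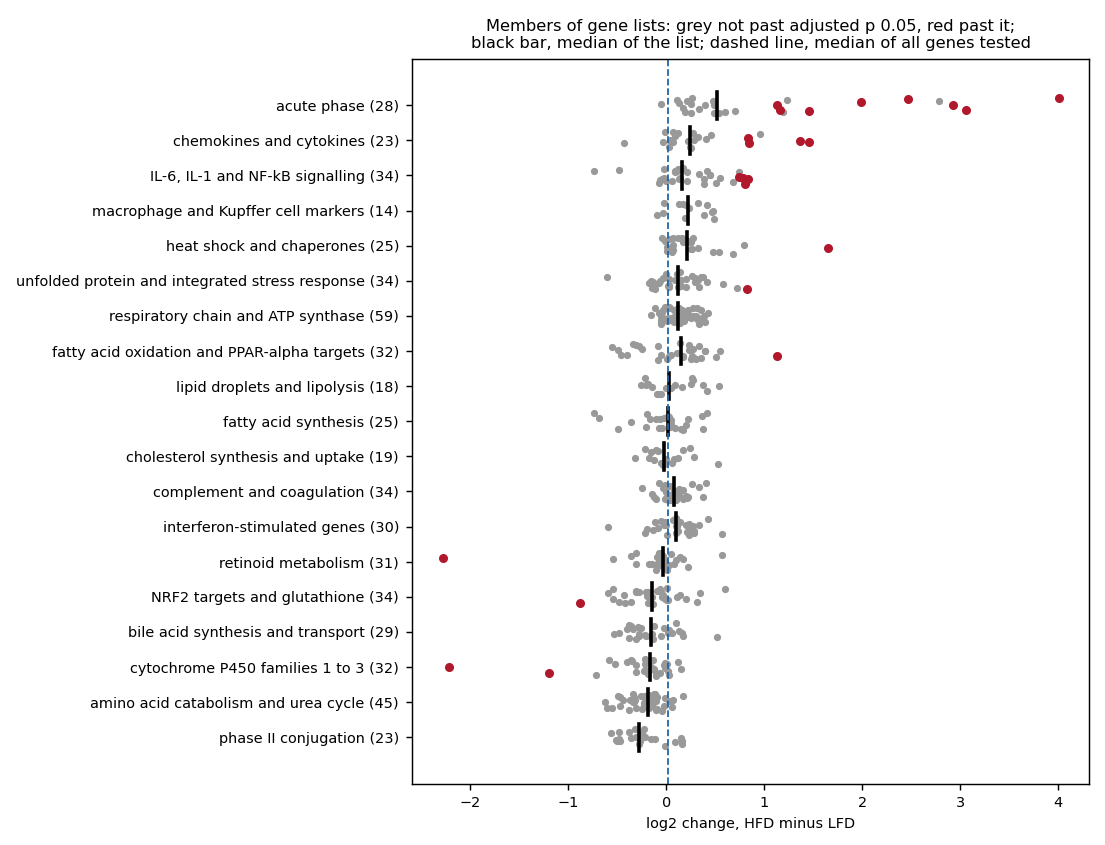
Change of each tested member (log2, HFD minus LFD, x axis) of 19 gene lists, with the number of tested members in parentheses; red points passed an adjusted p of 0.05, the black bar is the median of the list and the dashed line the median of all genes tested. The acute phase list has its median at 0.52 and 8 red points, while the lists of fatty acid synthesis and cholesterol synthesis have medians near 0 and no red point.

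Mt1 and Mt2, the metallothionein genes, rose. They encode small cysteine-rich proteins that bind zinc and copper, and are induced by metals through the factor MTF-1 as well as by glucocorticoids and interleukin-6. MTF-1 binds metal response elements, and the 250 bases before each gene's start are shown because the pair moved together; capitals mark matches to the element's core, searched as TGCACNC and TGCGCNC on both strands. The sequences are from RefSeq (GRCm38.p6), at chr8:94178839-94179088 for Mt1 and chr8:94172368-94172617 for Mt2, both on the plus strand, 5′ to 3′.
Mt1: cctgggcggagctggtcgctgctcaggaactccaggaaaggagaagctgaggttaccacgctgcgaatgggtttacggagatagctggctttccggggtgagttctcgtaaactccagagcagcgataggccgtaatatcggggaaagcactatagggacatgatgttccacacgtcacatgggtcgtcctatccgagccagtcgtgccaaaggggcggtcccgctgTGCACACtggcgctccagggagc
Mt2: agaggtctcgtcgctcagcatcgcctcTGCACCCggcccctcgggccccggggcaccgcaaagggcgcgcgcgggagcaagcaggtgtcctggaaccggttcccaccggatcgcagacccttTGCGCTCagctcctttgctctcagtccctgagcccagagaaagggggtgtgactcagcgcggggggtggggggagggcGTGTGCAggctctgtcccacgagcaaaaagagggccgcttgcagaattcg
In the 250 bases shown Mt1 holds 1 match and Mt2 3. Bases beyond the listed start were not searched, so these are not counts of all elements of either gene. Such a match is common, being found in 23.8% of the 27025 genes with a promoter sequence of this length, in 9 of the 29 higher genes with one (31.0%) and in 6 of the 11 lower genes. Mt2 had 10.09 and 9.59 in LFD and 12.74 and 12.78 in HFD, a rise of 2.92 (7.59-fold, SE 0.48, adjusted p = 0.0180). Mt1 had 9.02 and 8.65 in LFD and 11.54 and 11.06 in HFD, a rise of 2.47 (5.53-fold, SE 0.39, adjusted p = 0.0167). In both genes more than 2 log2 units lay between the highest LFD and the lowest HFD array, several times the distance between arrays of a group. Neither call was kept without LFD replicate 1 (2.65 and 3.17) or LFD replicate 2 (2.28 and 2.68), for Mt1 and Mt2 in turn. Among the 24 tested genes of metallothioneins and metal transport, Mt1 and Mt2 were the 2 called, 16 were positive and the median was 0.09. Over all genes tested 0.46% were called, 53.3% were positive and the median was 0.01. Probes of Mt1 and Mt2 may bind each other's transcripts.

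Some genes of chemokines and of NF-kB signalling rose in HFD, 4 of 23 and 4 of 34 tested in the lists below. Cxcl1, a neutrophil-attracting chemokine gene, had 8.02 and 8.40 in LFD and 9.42 and 9.72 in HFD. It rose by 1.36 (SE 0.17, adjusted p = 0.00417), with more than 1 log2 unit between the highest LFD and the lowest HFD array. Ccl2, the gene of the monocyte-attracting chemokine MCP-1, had 7.30 and 7.60 in LFD and 8.60 and 9.22 in HFD, a rise of 1.46 (SE 0.23, adjusted p = 0.0167). Cxcl14, a further chemokine gene, rose by 0.84 (adjusted p = 0.0192), and Il1a, the gene of interleukin-1 alpha, by 0.85 (adjusted p = 0.0238). Of 23 tested chemokine and cytokine genes 20 were positive, 4 passed, all higher, and the median was 0.24. The median was 0.11 without LFD replicate 2 and 0.09 with dim genes included. Among all genes tested 53.3% were positive, 0.343% were called higher and the median was 0.01. Ccl6, a macrophage chemokine gene, had 0.96 without passing (adjusted p = 0.165).

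Inhibitors of NF-kB were among the genes that rose. Nfkbia, the gene of IkB-alpha, which holds NF-kB in the cytoplasm, had 8.91 and 8.88 in LFD and 9.73 and 9.55 in HFD, so the 2 LFD arrays nearly coincided. It rose by 0.75 (SE 0.12, adjusted p = 0.0167). Tnfaip3, the gene of the ubiquitin-editing enzyme A20, which ends NF-kB signalling, had 7.01 and 7.22 in LFD and 8.10 and 7.81 in HFD, a rise of 0.84 (SE 0.15, adjusted p = 0.0294). Nfkbiz, the gene of the nuclear protein IkB-zeta, which acts on secondary NF-kB targets such as Lcn2, rose by 0.80 (adjusted p = 0.0203). Icam1 and Vcam1, genes of adhesion molecules for leukocytes, stood at 8.54 and 8.34 against 9.24 and 9.21, and at 8.24 and 8.10 against 8.85 and 8.94. They rose by 0.78 (adjusted p = 0.0200) and 0.73 (adjusted p = 0.0190). Il13ra1, the gene of a receptor chain for interleukin-4 and interleukin-13, rose by 0.58 (adjusted p = 0.0395). Of 34 tested genes of interleukin-6, interleukin-1 and NF-kB signalling 26 were positive, with a median of 0.16, or 0.32 without LFD replicate 1. In this list 4 passed, all higher (Nfkbia, Icam1, Nfkbiz and Tnfaip3). The shares over all genes tested were 53.3% positive and 0.343% called higher, with a median of 0.01.

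The promoters of 3 of these genes are shown because they hold a match to the NF-kB element, searched by its consensus on both strands and marked in capitals. They are the 250 bases before the gene's start in GRCm38.p6, from RefSeq, 5′ to 3′ on the strand of the gene, at chr5:90890995-90891244 (plus strand), chr12:55492648-55492897 (minus strand) and chr10:19015411-19015660 (minus strand).
Cxcl1: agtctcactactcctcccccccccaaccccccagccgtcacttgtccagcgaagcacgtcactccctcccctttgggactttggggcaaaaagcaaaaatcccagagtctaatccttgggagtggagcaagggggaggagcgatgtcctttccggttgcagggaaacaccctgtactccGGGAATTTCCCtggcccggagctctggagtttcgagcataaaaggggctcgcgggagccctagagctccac
Nfkbia: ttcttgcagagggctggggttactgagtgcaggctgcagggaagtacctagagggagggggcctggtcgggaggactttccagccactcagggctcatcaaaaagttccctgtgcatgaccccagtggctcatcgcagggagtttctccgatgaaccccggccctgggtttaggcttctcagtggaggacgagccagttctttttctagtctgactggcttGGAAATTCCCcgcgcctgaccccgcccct
Tnfaip3: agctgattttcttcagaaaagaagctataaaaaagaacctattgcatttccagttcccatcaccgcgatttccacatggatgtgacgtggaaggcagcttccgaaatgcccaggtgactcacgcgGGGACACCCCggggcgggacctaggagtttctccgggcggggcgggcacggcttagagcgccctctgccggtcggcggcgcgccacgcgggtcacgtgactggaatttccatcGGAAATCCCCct
The 2 matches of Cxcl1 overlap, 61 to 71 bases before the start, and that of Nfkbia lies 20 to 29 bases before it. For Tnfaip3, which has 2 listed starts, the stretch 116 to 125 bases before the start matches on both strands and another lies 3 to 12 bases before it. A match was present in 8.23% of all genes with a promoter sequence, in 4 of the 29 higher genes (13.8%, the 3 above and Creld2) and in 0 of the 11 lower ones.

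Of the 10 called chemokine, adhesion and NF-kB genes 5 kept the call without HFD replicate 1, 2 without HFD replicate 2, 1 without LFD replicate 2 and 0 without LFD replicate 1, with the smallest change, 0.526, without LFD replicate 2. Markers of macrophages lay in the same direction. Of 14 tested macrophage and Kupffer cell markers 11 were positive and 10 had both HFD arrays above both LFD arrays, with a median of 0.22 (0.35 without HFD replicate 2) and 0 calls. Over all genes tested 53.3% were positive, and both HFD arrays lay above both LFD arrays for 21.7% and below them for 16.5%. The linear signals of the 14 macrophage markers summed to 13.68 and 13.63 log2 units in the LFD arrays and 13.90 and 13.85 in the HFD arrays. Cd9 had 0.49 (adjusted p = 0.135), the scavenger receptor gene Marco 0.42 (adjusted p = 0.167) and the lysosomal marker Cd68 0.39 (adjusted p = 0.244), while 4 further markers were too dim to be tested. The 3 tested neutrophil markers summed to 8.42 and 8.67 in LFD and 8.65 and 8.74 in HFD. The 5 lymphocyte markers summed to 10.02 and 9.91 in LFD and 10.06 and 9.74 in HFD. Both of these sums overlapped between the diets. Both HFD arrays lay above both LFD arrays for 2 of the 3 neutrophil markers, and below them for 2 of the 5 lymphocyte markers. A further 8 neutrophil and 6 lymphocyte markers were too dim to be tested. The other 6 marker lists outside hepatocytes had 0 calls, with medians of -0.05 for 12 stellate cell, -0.11 for 12 sinusoidal endothelium, 0.11 for 2 cholangiocyte, -0.30 for 2 erythroid, -0.03 for 2 adipocyte and -0.16 for 3 exocrine pancreas markers. The part of these cells in the rise of the chemokine and NF-kB genes was not tested.

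Among genes of protein folding and secretion 4 were called. Of all genes tested 0.46% were called and 53.3% were positive, with a median change of 0.01. Creld2, the gene of an endoplasmic reticulum protein induced by unfolded proteins, had 11.36 and 11.25 in LFD and 12.25 and 12.00 in HFD. It rose by 0.82 (SE 0.13, adjusted p = 0.0185). Its promoter is shown because it holds the endoplasmic reticulum stress element, bound by ATF6 (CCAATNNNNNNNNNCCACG, both strands, capitals), which only 35 genes, or 0.13%, hold in this window; it lies at chr15:88819396-88819645 of GRCm38.p6, plus strand, from RefSeq, and the match reads on the opposite strand.
Creld2: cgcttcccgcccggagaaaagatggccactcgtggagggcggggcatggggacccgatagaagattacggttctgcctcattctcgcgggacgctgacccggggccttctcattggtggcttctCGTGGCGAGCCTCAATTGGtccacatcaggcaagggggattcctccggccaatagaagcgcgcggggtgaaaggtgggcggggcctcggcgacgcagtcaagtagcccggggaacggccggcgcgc
Dnajc12, a cochaperone gene of the DNAJ family, had 8.14 and 7.91 in LFD and 9.32 and 10.04 in HFD, the second pool again higher, and rose by 1.65 (SE 0.25, adjusted p = 0.0127). Bhlha15, the gene of MIST1, a transcription factor of secretory cells, rose by 0.82 (adjusted p = 0.0317) from an LFD mean of 6.71, also under the filter level, and Pgm3, the gene of an enzyme that makes UDP-N-acetylglucosamine for glycoproteins, by 0.91 (adjusted p = 0.0218). Of 25 tested heat shock and chaperone genes 23 were positive with a median of 0.21 (0.14 without LFD replicate 2) and 1 passed, Dnajc12. Of 34 tested genes of the unfolded protein and integrated stress response 23 were positive, the median was 0.12 (0.02 without HFD replicate 1, 0.26 without HFD replicate 2) and Creld2 was the 1 called. Manf, a secreted endoplasmic reticulum stress protein gene, had 0.58 (adjusted p = 0.0564), Sdf2l1, of the same response, 0.73 (adjusted p = 0.101) and the heat shock gene Dnajb1 0.68 (adjusted p = 0.0724). Of the 4 called genes here 0 stayed called without either LFD array, 2 without HFD replicate 1 and 1 without HFD replicate 2.

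Among genes of lipid handling 5 were called, and those of fat synthesis did not pass. Of all genes tested 0.46% were called. Angptl4, a PPAR target whose product inhibits lipoprotein lipase, had 7.75 and 7.67 in LFD and 8.72 and 8.96 in HFD, a rise of 1.13 (SE 0.13, adjusted p = 0.00417). Fabp2, which encodes a cytosolic carrier of fatty acids best known from the intestine, had 10.29 and 10.01 in LFD and 11.16 and 11.09 in HFD. It rose by 0.98 (SE 0.14, adjusted p = 0.00865). Fabp5, the epidermal-type family member, had 8.68 and 8.51 in LFD and 9.63 and 9.75 in HFD and rose by 1.09 (SE 0.17, adjusted p = 0.0167). The lower HFD array lay clearly above the higher LFD array in all 3. The annotation gave Fabp5 2 clusters, of which the brighter stands here, and its call was kept with the mean of clusters. Etnppl, whose product breaks down phosphoethanolamine, had 11.10 and 10.67 in LFD and 9.76 and 9.36 in HFD, and it fell by 1.32 (SE 0.17, adjusted p = 0.00624). Gpcpd1, the gene of a glycerophosphocholine phosphodiesterase, was at 10.07 and 10.10 in LFD and at 9.48 and 9.26 in HFD, and fell by 0.72 (SE 0.12, adjusted p = 0.0180). Of these 5 calls all were kept without HFD replicate 1, 3 without HFD replicate 2, 1 without LFD replicate 2 and 0 without LFD replicate 1.

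The lists of lipid genes had 0 to 2 calls each. Of all genes tested 0.46% were called and 53.3% were positive. For 21.7% of all genes tested both HFD arrays lay above both LFD arrays, and for 16.5% below them. Fatty acid synthesis had 13 of 25 tested members positive, a median of 0.01 and 0 calls: Fasn was at -0.04, Scd1 at -0.03 and Srebf1, the gene of the insulin-responsive lipogenic factor SREBP-1, at -0.49 (adjusted p = 0.195). Mlxipl encodes ChREBP, which drives lipogenic genes in response to glucose, and had -0.73 (SE 0.16, adjusted p = 0.0813), with both HFD arrays under both LFD arrays. Fatty acid oxidation and PPAR-alpha targets had 21 of 32 positive and a median of 0.15 (0.08 without HFD replicate 1), with Angptl4 the 1 called. Both HFD arrays lay above both LFD arrays for 18 of the 32 and below them for 6. Eci2, the gene of an isomerase of fatty acid oxidation, had 0.51 (adjusted p = 0.167), the thioesterase gene Acot2 -0.49 (adjusted p = 0.135), Cyp4a14 -0.31 and Pdk4 -0.25. Of 18 lipid droplet genes 9 were positive and 8 had both HFD arrays above both LFD arrays, and Plin2, which coats lipid droplets and rises with stored fat, had 0.54 (SE 0.11, adjusted p = 0.0568), just short of passing. Cidec, another droplet protein gene, had 0.28 (adjusted p = 0.619), the fatty acid transporter gene Cd36 -0.32 (adjusted p = 0.521) and Pparg -0.37 (adjusted p = 0.273). Cholesterol genes had 8 of 19 positive (median -0.03, 0 calls) and lipoprotein genes 12 of 20 (median 0.07, 0 calls). Fatty acid uptake and binding had 9 of 15 positive, with Fabp2 and Fabp5 the 2 called, and triglyceride and phospholipid assembly 7 of 21, with Etnppl the 1 called.

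Genes of detoxifying enzymes were among the 14 that fell. Cyp2b9, a cytochrome P450 gene with higher expression in female liver, had 9.91 and 8.22 in LFD and 6.82 and 6.88 in HFD. The LFD arrays were far apart, and the fall of 2.21 (SE 0.40, adjusted p = 0.0294) became -1.37 without LFD replicate 1. The gene entered the test only through its LFD arrays. The HFD arrays, like the group means on arsenite water, lay under the level of the filter (6.97), so the size of the fall is uncertain. With no filter its call was lost, as were the calls of all 6 genes of this paragraph. Cyp2a22, a further P450 gene, had a like spread, with 8.94 and 7.99 in LFD and 7.24 and 7.29 in HFD, and fell by 1.20 (SE 0.22, adjusted p = 0.0297), or -0.72 without LFD replicate 1. Gstt3, a glutathione transferase gene, had 10.37 and 10.15 in LFD and 9.41 and 9.34 in HFD and fell by 0.88 (SE 0.14, adjusted p = 0.0167). Akr1c19, an aldo-keto reductase gene, fell by 0.92 (adjusted p = 0.0317), Ethe1, whose product oxidises persulfides in mitochondria, by 0.75 (adjusted p = 0.0167) and Car14, a carbonic anhydrase gene, by 0.66 (adjusted p = 0.0317). None of these 6 calls was kept without LFD replicate 1 or HFD replicate 2, whereas leaving out LFD replicate 2 or HFD replicate 1 kept 2 each. Probes of the Cyp2 and Gst families may bind close relatives.

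Lists of hepatocyte metabolism had mostly negative members, by small amounts, and 0 to 2 calls each. Of all genes tested 53.3% were positive and 0.46% were called. For 16.5% of all genes tested both HFD arrays lay under both LFD arrays. Of 32 tested P450 genes of families 1 to 3, 27 were negative, the median was -0.17 and 2 passed, both lower, Cyp2b9 and Cyp2a22. Cyp2b9 had entered the test only through its LFD arrays. The list does not hold Cyp2d40, a P450 gene of family 2 that was called higher (0.95, adjusted p = 0.0197). Phase II conjugation had 19 of 23 negative and 18 with both HFD arrays under both LFD arrays, a median of -0.27 and 0 calls; the glucuronosyltransferase gene Ugt2b37 had -0.48 (adjusted p = 0.0996) and the sulfotransferase gene Sult1c2 -0.52 (adjusted p = 0.176). Amino acid catabolism and the urea cycle had 41 of 45 negative, 31 of them apart, and 0 calls. Its median of -0.18 was -0.32 without HFD replicate 1 and -0.09 without HFD replicate 2. Within it Cth, a transsulfuration enzyme gene, had -0.61 (adjusted p = 0.165) and Prodh, the proline dehydrogenase gene, -0.55 (adjusted p = 0.167). NRF2 and glutathione genes had 24 of 34 negative (median -0.14, -0.05 without LFD replicate 1, 1 called lower, Gstt3), though Hmox1, the heme oxygenase gene, stood at 0.60 (adjusted p = 0.10). Bile acid genes had 20 of 29 negative (median -0.16, -0.05 without HFD replicate 2, 0 calls), with the rate-limiting enzyme gene Cyp7a1 at -0.40 (adjusted p = 0.550). In the other direction, 48 of 59 respiratory chain and ATP synthase genes were positive (median 0.12, between 0.05 without LFD replicate 2 and 0.21 without LFD replicate 1, 0 calls). The 7 hepatocyte markers had a median of -0.12 (-0.03 without HFD replicate 2 and -0.22 without HFD replicate 1) and summed to 16.73 and 16.74 log2 units in LFD and 16.73 and 16.61 in HFD. The part of the hepatocyte markers in these values was not tested.

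Cyp26a1, the gene of the enzyme that breaks down retinoic acid, had the largest fall. Its transcription is switched on by retinoic acid itself, through receptors that bind a repeated element before the gene. The 250 bases before its start (chr19:37697558-37697807, GRCm38.p6, plus strand, from RefSeq) are shown with the match to that element, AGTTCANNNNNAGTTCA on both strands, in capitals. The match reads on the opposite strand, 16 to 32 bases before the start, and 7 of the 27025 genes (0.0259%) have one in this window. The search allowed only this spelling of the repeat, the one that Cyp26a1 holds. The share is therefore that of the spelling, not of retinoic acid elements at large, and says nothing about how unusual the gene is.
Cyp26a1: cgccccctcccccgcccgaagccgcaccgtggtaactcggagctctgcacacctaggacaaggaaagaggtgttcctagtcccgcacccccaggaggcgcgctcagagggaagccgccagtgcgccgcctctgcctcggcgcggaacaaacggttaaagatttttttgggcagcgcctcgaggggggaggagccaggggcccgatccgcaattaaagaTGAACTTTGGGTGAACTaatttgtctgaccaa
Cyp26a1 had 11.99 and 11.79 in LFD and 9.72 and 9.49 in HFD, with arrays of a group close together and more than 2 log2 units between the groups. It fell by 2.28 (4.87-fold lower, SE 0.26, adjusted p = 0.00417) and lost its call only without LFD replicate 1, with a fall of 2.19 there. The retinoid list had 21 of 31 tested members negative, a median of -0.04 and Cyp26a1 the 1 called. The shares over all genes tested were 53.3% positive and 0.46% called, with a median of 0.01. Rdh16, a retinol dehydrogenase gene, had -0.54 (adjusted p = 0.167) and Bco1, the gene of the enzyme that cleaves beta-carotene, 0.57 (adjusted p = 0.104).

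Raet1d and Clec2h, from a list of natural killer receptor ligands and C-type lectins, fell in HFD. Raet1d, the gene of a RAE-1 protein, a stress ligand of the receptor NKG2D, had 11.59 and 11.49 in LFD and 10.10 and 9.72 in HFD. It fell by 1.63 (3.10-fold lower, SE 0.22, adjusted p = 0.00624), with the LFD arrays close together. Clec2h, a C-type lectin gene of the family that holds ligands of NKRP1 receptors, had 9.16 and 8.65 in LFD and 7.60 and 7.39 in HFD and fell by 1.41 (SE 0.19, adjusted p = 0.00720). These were 2 of 3 tested members of their list. The third stood at -0.06 with overlapping arrays, and 5 others were too dim. Among all genes tested 0.117% were called lower, 53.3% were positive and 16.5% had both HFD arrays under both LFD arrays. Gbp11, an interferon-induced GTPase gene, had 9.07 and 9.13 in LFD and 8.35 and 7.99 in HFD and fell by 0.93 (adjusted p = 0.0192). It was the 1 called among 8 GTPases (7 negative, median -0.08, 0.16 without HFD replicate 2). Of 30 interferon-stimulated genes 20 were positive (median 0.10, 0.23 without HFD replicate 2 and -0.03 without HFD replicate 1) and 0 passed; Ifi27 had 0.57 (adjusted p = 0.0501) and Rsad2 -0.59 (adjusted p = 0.279). The calls of Raet1d, Clec2h and Gbp11 were all kept without HFD replicate 1, 1 without LFD replicate 2 and 0 without LFD replicate 1 or HFD replicate 2.

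The remaining called genes belong to no list or to several functions. Higher in HFD were Slc17a8, a vesicular glutamate transporter gene, at 7.84 and 7.86 in LFD and 8.52 and 9.36 in HFD (1.09, or 0.67 without HFD replicate 2), and Chrm3, the gene of the M3 muscarinic acetylcholine receptor, at 7.72 and 7.53 against 8.75 and 8.36 (0.93). Cyp2d40, a P450 gene, had 9.25 and 9.28 in LFD and 10.23 and 10.20 in HFD, the arrays of each group nearly equal, and rose by 0.95 (SE 0.16, adjusted p = 0.0197). Atp11a, a phospholipid flippase gene, rose by 0.87, and Tspan4, a tetraspanin gene, by 0.82. Dio1, the gene of the deiodinase that activates thyroid hormone, rose by 0.72 (SE 0.14, adjusted p = 0.0326), Gas6, the gene of the ligand of TAM receptors, by 0.69, and Stap1 and Stap2, adaptor protein genes, by 0.69 and 0.66. Cd302, a C-type lectin receptor gene, Cyb561, a cytochrome b561 gene, Wfdc21, a gene of the whey acidic protein family, and Ccdc167 rose by 0.60, 0.59, 0.58 and 0.58. Lower were Robo1, the gene of a receptor for Slit guidance proteins (9.26 and 9.28 in LFD, 8.51 and 8.70 in HFD), by 0.66, and Nrep, a neuronal regeneration related gene, by 0.81. Of the 14 higher genes of this group, with the 1 that has a clone name, 0 kept the call without either LFD array, 3 without HFD replicate 1 and 2 without HFD replicate 2. Of the 2 lower ones 1 did without HFD replicate 1 and 0 without the other 3 arrays.

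Clock, growth hormone and fasting genes gave values without calls of their own kind. Among all genes tested 53.3% were positive and 0.46% were called. The clock list had 1 call in 16 tested genes, Tspan4, which is no core clock gene; Nr1d1, the gene of the clock repressor REV-ERB-alpha, had -0.93 (adjusted p = 0.201) and Nfil3 0.80 (adjusted p = 0.129). Growth hormone and male-biased genes had 12 of 27 positive and 0 calls (median -0.05, or -0.24 without HFD replicate 1). Socs2, which restrains growth hormone signalling, had -0.88 (SE 0.19, adjusted p = 0.0635), and Moxd1, a monooxygenase-like gene listed as male-biased, 2.19 (SE 0.45, adjusted p = 0.0604). Of 13 female-biased genes 12 were negative (median -0.18, or 0.00 without LFD replicate 1) and 1 was called, Cyp2b9, which had entered the test only through its LFD arrays. Glucose and fasting genes had 23 of 38 positive and 0 calls (median 0.10, or 0.03 without HFD replicate 1). Igfbp1, an insulin-repressed gene of a growth factor binding protein, had 1.12 (adjusted p = 0.129) and Pck1, the gene of the gluconeogenic enzyme PEPCK, 0.64 (adjusted p = 0.262). Lists of the cell cycle, p53 targets, extracellular matrix and hepatic nuclear receptors had 0 calls among their tested members, with Fas at 0.52 (adjusted p = 0.0895) and Thbs1 at 0.73 (adjusted p = 0.0864).

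The changes of the same diet comparison in mice on arsenite water are taken from the other 4 arrays, though the variance behind its test is shared with the 4 plain-water arrays (1121 genes passed with its own 4 arrays alone). In the fit to all 8 arrays 1227 genes passed (10.3%), 218 higher (1.82%) and 1009 lower (8.43%), a count that fell to 63 (28 higher, 35 lower) with the trend on gene span removed, to 17 without LFD+As replicate 2, to 31 without HFD+As replicate 1 and to 471 without LFD+As replicate 1. The split was 271 higher and 688 lower with quantile normalization and 67 and 147 with median centring. Since the 55 genes were chosen on the plain-water arrays, their changes there are a description. On arsenite water 4121 of all 11963 genes tested were positive, the baseline for the counts of signs that follow. Of the 41 higher genes 23 were also positive on arsenite water, with a median of 0.04 against 0.85, and 3 passed in the same direction: Angptl4 (0.60, adjusted p = 0.0223), Stap1 (0.47, adjusted p = 0.0421) and Wfdc21 (0.41, adjusted p = 0.0428). Atp11a passed in the opposite one (-0.57, adjusted p = 0.0408). Of the 14 lower genes 12 were negative, with a median of -0.11 against -0.92, and 3 passed: Raet1d (-1.85, adjusted p = 0.00207), Cyp26a1 (-1.63, adjusted p = 0.00981) and Robo1 (-0.85, adjusted p = 0.00709). Over all genes tested 6750 had the same sign on both waters.

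Levels on arsenite water differed by gene. Saa1 was at 10.07 and 8.66 in LFD+As and at 9.07 and 8.88 in HFD+As, so that the diets overlapped there and both LFD+As arrays lay above the LFD arrays on plain water. Lcn2 had 12.55 and 11.40 in LFD+As and 11.57 and 12.06 in HFD+As, likewise overlapping. Mt2 had 13.24 and 11.09 in LFD+As and 13.43 and 12.51 in HFD+As, with the LFD+As pools more than 2 log2 units apart. Cyp26a1 had 10.40 and 11.54 in LFD+As and 9.50 and 9.19 in HFD+As, and Raet1d 10.52 and 11.33 against 9.26 and 8.90, both with the HFD+As arrays below, as for 43.8% of the genes tested on that water. Angptl4 had 8.07 and 8.19 in LFD+As and 8.88 and 8.59 in HFD+As, arrays that lay above as for 15.6% of genes. Fabp2 stood at 11.12 and 11.14 in LFD+As, about as high as in HFD, and at 11.41 and 11.74 in HFD+As.

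**Figure D3:**
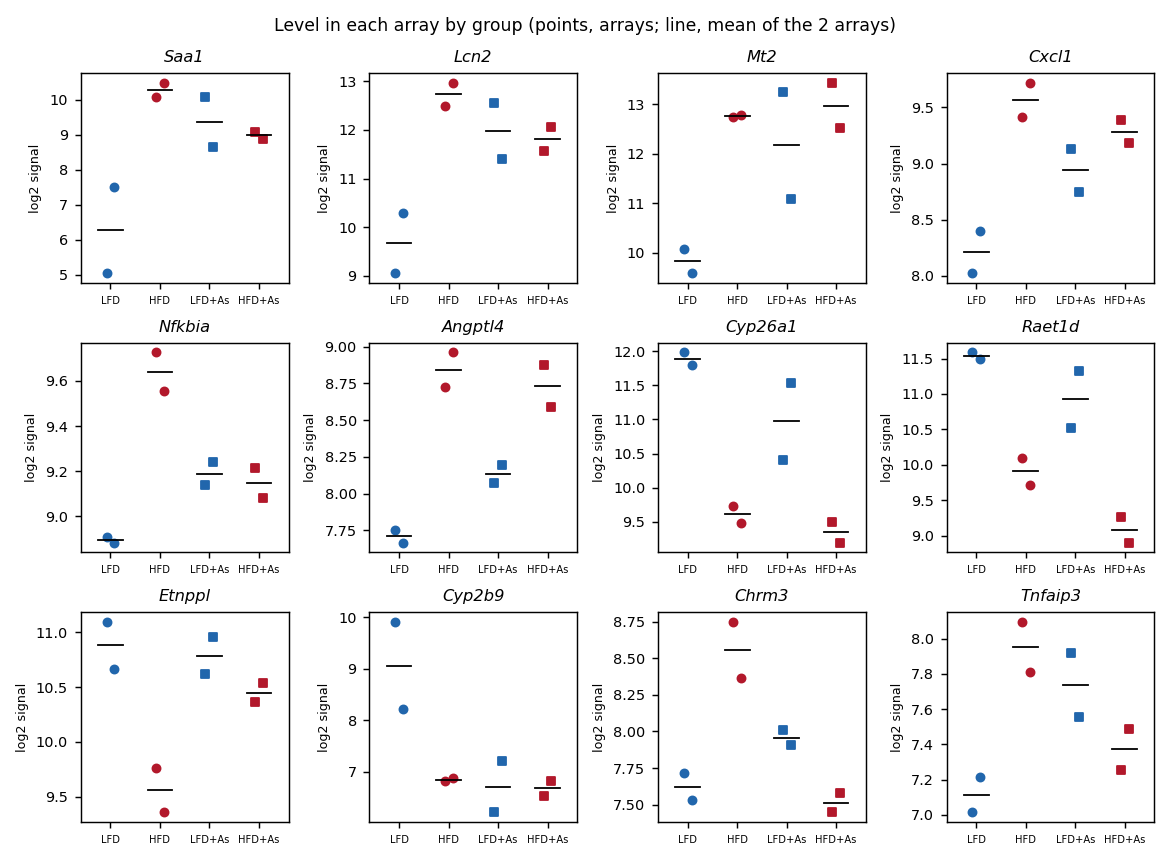
Level (log2 signal, y axis, its own range in each panel) of 12 called genes in each of the 8 arrays by group, blue for LFD and red for HFD, circles for plain and squares for arsenite water, with the mean of the 2 arrays as a line. Cyp26a1, Raet1d and Angptl4 show the diets apart on both waters, whereas Saa1 and Lcn2 overlap between diets on arsenite water and Chrm3 and Tnfaip3 turn round.

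The difference between the diet effects on the 2 waters did not pass for any gene with limma (0 of 11963, 0% called, 1659 at an unadjusted p under 0.05). It passed for 6 genes among the brightest 40%, for 12 with a variance trend and for 0 to 23 with 1 array left out. All 41 higher genes and 12 of the 14 lower ones had the smaller change on arsenite water, and 39 and 11 had an unadjusted p under 0.05 for the difference, with adjusted p from 0.0591 to 0.765. These genes were chosen for a large change on plain water, and the difference uses the same arrays, so that a smaller change elsewhere is favoured by the choice. The fatty acid synthesis list was at 0.01 on plain water with 0 calls. On arsenite water its median was -0.66, beside -0.09 for all genes tested there. On that water 15 of its 25 members were called lower, beside 8.43% of all genes tested. All calls on that water fell from 1227 to 63 with the span trend removed. The respiratory chain list was at 0.12 and 0.18, with 48 and 46 of 59 positive. Of all genes tested 53.3% were positive on plain water and 4121 of 11963 on arsenite water.

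**Figure D4:**
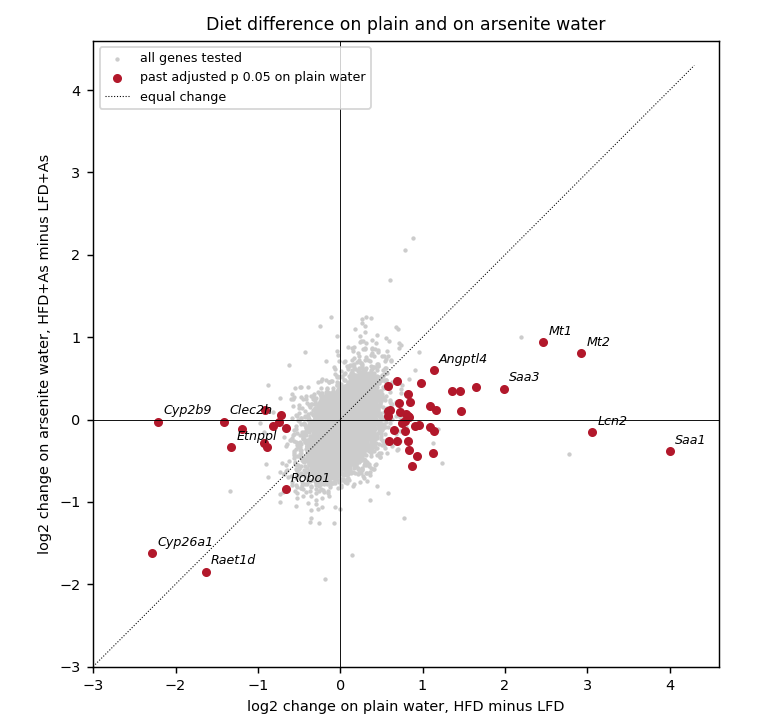
Diet difference on plain water (HFD minus LFD, log2, x axis) against that on arsenite water (HFD+As minus LFD+As, y axis) for all 11963 genes tested (grey) and the 54 named genes called on plain water (red); the dotted line marks equal changes. The axes share no array, but the red genes were chosen on the x axis, and most of them lie between the dotted line and 0.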

How the data were processed

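Liver RNA of 4 groups was measured on 8 arrays. The authors deposited 1 log2 signal for each transcript cluster, a set of probes taken to read 1 gene. The submitters' processing notes name Affymetrix Expression Console 1.0; how it corrected background, normalized arrays and summarized probes is not given in the sources used here. Array medians over all clusters lay between 7.08 and 7.18, and the values were used as deposited, with no pseudocount. The number of arrays limits the precision (median SE of a group difference 0.127).

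Of 35556 clusters the platform annotation gave 1 symbol for 21789, several for 1621 and none for 12146; 21698 matched a gene of the RefSeq table of GRCm38.p6. The brightest cluster stood for its gene. The 60% of genes with the highest mean (above 6.97) entered limma 3.58.1 (R 4.3.3), as 1 fit of 4 group means to all 8 arrays (4 residual and 9.32 prior degrees of freedom), with Benjamini-Hochberg adjustment over all genes tested and a threshold of 0.05; every adjusted p in the text is from this fit. The script was tested on simulated data. Named were all genes called, predicted or clone symbols excepted, up to 4 called members of each list or, where fewer than 2 passed, 3 with the smallest p, and genes taken whatever their values; Saa2, Orm2, Steap4 and Ccl6 were added after their values were seen. The 32 gene lists and 10 marker lists are described by counts and medians; the grouping of the called genes in the text was made after the calls were known. The members and lists were chosen with earlier results of these data known. Replicate numbers name pools of different mice and do not pair them. Alternatives tried were the arrays fitted, the filter, quantile normalization, median centring, the mean of clusters, a variance trend, removal of the span trend, a replicate block and leaving out each array. Cidea and Mogat1 were too dim to be tested.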

Additional observations from a re-analysis of the deposited data

Results flagged for a closer look

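For 7 genes called on plain water, both HFD arrays lay on one side of both LFD arrays on plain water and both HFD+As arrays lay on the other side of both LFD+As arrays. The difference of the diet effect (arsenite water minus plain water) was -1.43 for Atp11a and -1.38 for Chrm3 (adjusted p = 0.0591 for both), -1.20 for Tnfaip3 (adjusted p = 0.0948), -0.95 for Gas6, -0.85 for Cyb561, -0.79 for Stap2 and 0.77 for Gpcpd1. None of these differences passed the test with limma, and the genes were chosen on arrays that enter the difference. Of all genes tested 779, or 6.51%, had arrays in opposite order on the 2 waters.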

How the results depend on the processing

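In HFD against LFD, 55 genes were called. With no filter on dim genes 13 were, and with 1 array left out 0 to 72, with 0 without LFD replicate 1 (1829 at an unadjusted p under 0.05), 11 without LFD replicate 2 and 16 without HFD replicate 2. The other settings gave 41 to 70, and the 55 genes kept their sign in every setting that measured them. With 1 array left out or no filter this was fixed beforehand, because the arrays of all 55 lay apart between the diets. For HFD+As against LFD+As the 1227 calls became 165 with no filter, 214 with median centring, 63 with the span trend removed and 17 to 1481 with 1 array left out. The difference between the waters, 0 genes with limma (1659 at an unadjusted p under 0.05), gave 6 with the brightest 40% of genes, 12 with a variance trend and 0 to 23 with 1 array left out. With the replicate block 51 genes were called in HFD against LFD, 47 of them among the 55, 918 in HFD+As against LFD+As and 0 for the difference; deviations of same-numbered arrays correlated across genes at 0.179 between LFD and HFD and at -0.217 to 0.0402 for the other pairs of groups, and the numbers name unrelated pools. Among the 55 genes the change moved by more than 1.5 times for Cyp2b9 (-1.37) and Cyp2a22 (-0.72) without LFD replicate 1 and for Saa3 (1.22), Apcs (0.91) and Slc17a8 (0.67) without HFD replicate 2. The number of arrays, 2 per group, limits every result, and signals could not be set against background. The causes of these changes were not tested.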
